A study of Homo sapiens with 4 samples.

Results

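The small nucleolar RNA (snoRNA) host genes described here were GAS5, SNHG1, SNHG5, SNHG6, SNHG7, SNHG8, SNHG12, SNHG15, SNHG16 and ZFAS1. They were found by their symbols in the deposited table, and all 10 were present among its 14431 genes. The RNA came from HGC27, an established human gastric cancer cell line, with 2 control libraries from cells labelled wild type (WT) and 2 libraries from cells in which AARS1 was knocked down with a small interfering RNA (siAARS1). The column names of the controls hold the letters NC, and whether these cells received a control small interfering RNA is not known here. All 4 libraries came from cells kept in glucose-free DMEM with added lactate at 25 mM, so both groups share the lactate and the lack of glucose. The labels give 24 h of lactate and the text of the study gives another duration, so the time is uncertain. The labels do not say whether the replicates of a group were separate cultures, and the p-values measure only the spread between these libraries, which may be technical.

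A snoRNA host gene carries snoRNAs in its introns. The introns released by splicing are trimmed to mature snoRNAs, which guide the chemical modification of ribosomal RNA: box C/D snoRNAs guide ribose methylation and box H/ACA snoRNAs guide pseudouridylation. The spliced exons of noncoding hosts hold only short reading frames. They are engaged by ribosomes and then broken down by nonsense-mediated decay (NMD), so that the level of the spliced RNA also depends on translation. Many hosts start with a run of pyrimidines, the 5' terminal oligopyrimidine (TOP) motif that is best known from ribosomal protein mRNAs. GAS5 is the textbook example, an RNA first found because it accumulates in cells that have stopped growing.

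The reference annotation (GENCODE 29 bodies and RefSeq snoRNA genes, GRCh38) placed 37 snoRNA genes inside the 10 hosts, of which 28 are named SNORD (box C/D) and 8 are named SNORA (box H/ACA). GAS5 (ENSG00000234741, chromosome 1, 173863900 to 173868882, minus strand) held 11 of them. SNHG1 (ENSG00000255717, chromosome 11, 62851988 to 62855914, minus strand), long known as the U22 host gene, held 9. SNHG12 (ENSG00000197989, chromosome 1, 28578538 to 28583132, minus strand) held 4, and ZFAS1 (ENSG00000177410, chromosome 20, 49278178 to 49295738, plus strand) held 3. SNHG7, SNHG8 and SNHG15 were the 3 hosts with box H/ACA snoRNAs only. Of the 37 snoRNA genes, 25 lay outside every exon of the transcripts that retain no intron, and the others overlapped an annotated exon. Mature snoRNAs of these hosts were not analysed here, and the values below are those of the host genes.

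**Figure D1:**
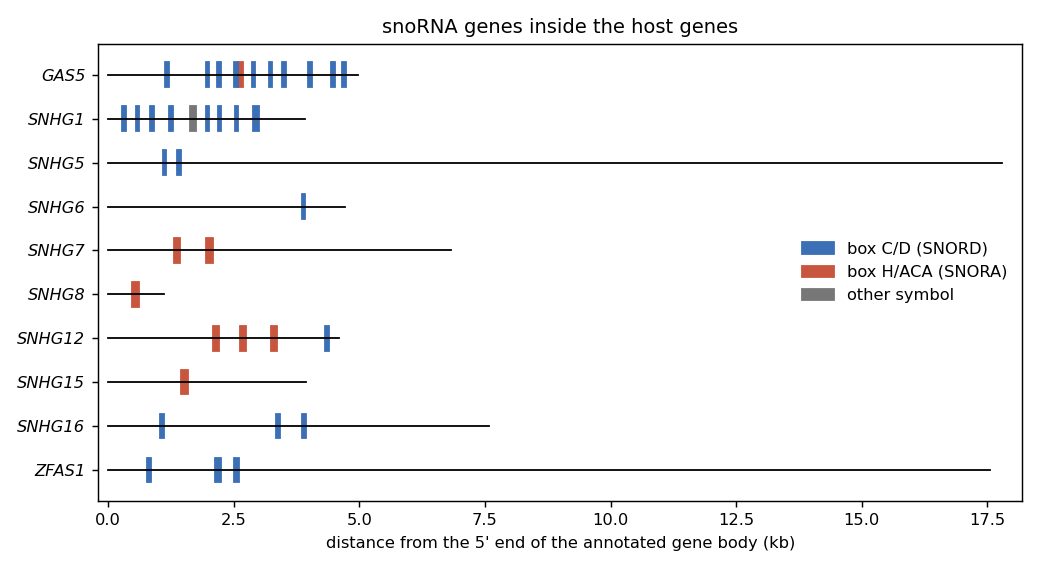
Each black line is the annotated body of a host gene, drawn to scale in kb from its 5' end, and each coloured box is a snoRNA gene inside it (blue, box C/D; red, box H/ACA; grey, another symbol). GAS5 carries 11 snoRNA genes and SNHG1 carries 9, while the SNHG6, SNHG8 and SNHG15 bodies carry 1 each.

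A pair of box C/D snoRNAs is shown to make plain what these genes carry, 1 from a host that fell and 1 from a host that rose. SNORD12C lies in ZFAS1 (chr20:49278940-49279028, plus strand) and SNORD25 lies in SNHG1 (chr11:62855564-62855632, minus strand), where it overlaps an annotated exon. The capitals mark the C box (TGATGA) near the 5' end and the D box (CTGA) near the 3' end, found by a search for these letters in the transcripts' genomic sequence (GRCh38).
SNORD12C: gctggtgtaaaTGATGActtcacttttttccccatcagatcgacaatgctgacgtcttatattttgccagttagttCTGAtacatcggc
SNORD25: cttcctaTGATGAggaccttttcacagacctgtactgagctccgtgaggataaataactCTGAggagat

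The starts of some hosts are shown because several of them share features that the choice of members did not use. The RefSeq promoter table (GRCh38.p14) held 8 of the 10 members. The lines below are for the members that held TATAA, each with 40 bases before the RefSeq start and 20 bases from it. The capitals mark the letters TATAA, searched 16 to 40 bases before the start on the gene's own strand, and a TOP-like tract, which is a C at the start followed by at least 4 bases that are C or T. The regions are chr20:49278602-49278661 (plus strand) for ZFAS1, chr1:28581854-28581913 (minus strand) for SNHG12, chr6:85678714-85678773 (minus strand) for SNHG5, chr9:136728165-136728224 (minus strand) for SNHG7 and chr4:118278722-118278781 (plus strand) for SNHG8.
ZFAS1: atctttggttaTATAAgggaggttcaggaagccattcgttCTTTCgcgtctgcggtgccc
SNHG12: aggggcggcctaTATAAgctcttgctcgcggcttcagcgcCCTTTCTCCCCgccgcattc
SNHG5: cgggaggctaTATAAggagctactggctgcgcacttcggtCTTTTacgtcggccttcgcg
SNHG7: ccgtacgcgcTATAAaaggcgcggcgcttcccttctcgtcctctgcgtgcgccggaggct
SNHG8: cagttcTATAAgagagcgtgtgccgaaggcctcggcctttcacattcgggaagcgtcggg

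These 5 members held TATAA in the window, 62.5% of the 8 with an entry, against 3.91% of all 35116 promoters and 8.97% of the promoters of 78 ribosomal protein genes. ZFAS1, SNHG12 and SNHG5 also held the TOP-like tract, 37.5% of the members against 4.07% of all promoters and 60.3% of the ribosomal protein promoters. Both features together were found in these 3 members, in 0.0940% of all promoters and in 7.69% of the ribosomal protein promoters. GAS5, SNHG1 and SNHG16 had neither at their RefSeq starts. In GENCODE, 6 GAS5 transcripts share a start further inside the gene, whose first 30 bases (chr1:173867960-173867989, minus strand) open with a tract of 6 pyrimidines, in capitals.
GAS5: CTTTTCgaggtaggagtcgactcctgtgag
Over all GENCODE transcripts, 8 of the 10 members had at least 1 TOP-like start (80%), against 16.9% of 14027 listed genes and 83.3% of 78 ribosomal protein genes. Genes with more annotated transcripts have more chances to hold one. By transcript the shares were 16.9% of the 136 member transcripts, 2.68% of 122596 transcripts of listed genes and 20.5% of the ribosomal protein transcripts. A match to these letters is a description of the sequence and does not show a functional element.

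The members were well measured. Values are CPM, reads scaled to the size of the library, in which 1 read equalled 0.0293 to 0.0324 CPM, and the lowest member, SNHG8, still had 1011 reads in siAARS1 replicate 1. The summed level of the 10 hosts was 1410 and 1363 CPM in the controls against 1266 and 1340 CPM under siAARS1, so both siAARS1 sums were below the control sums. GAS5 alone made up 37.4% and 37.9% of that sum in the controls and 32.5% and 32.8% in the siAARS1 libraries. Its control mean lay at percentile 98.3 of all genes tested by CPM, and that of SNHG8 at percentile 60.8.

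To rank the hosts by level, CPM were divided by the median transcript length in kilobases. In the controls the order was GAS5 (873 CPM per kb ± 12.7, SD, n = 2), ZFAS1 (220 ± 10.4), SNHG6 (210 ± 1.82), SNHG1 (199 ± 0.756), SNHG16 (86.2 ± 3.62), SNHG15 (73.4 ± 4.62), SNHG8 (71.4 ± 2.86), SNHG5 (53.2 ± 3.48), SNHG12 (48.6 ± 1.85) and SNHG7 (31.6 ± 0.226). SNHG15 and SNHG8 were the only neighbours in that order whose control libraries overlapped. In the siAARS1 libraries SNHG1 stood second, at 249 CPM per kb ± 13.4, above SNHG6 (181 ± 8.91) and ZFAS1 (177 ± 6.61), which overlapped each other. SNHG12 (62.3 ± 0.849) stood above SNHG5 (58.0 ± 0.794) there. These levels depend on which annotated transcripts the cells use, which the table does not give.

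**Figure D2:**
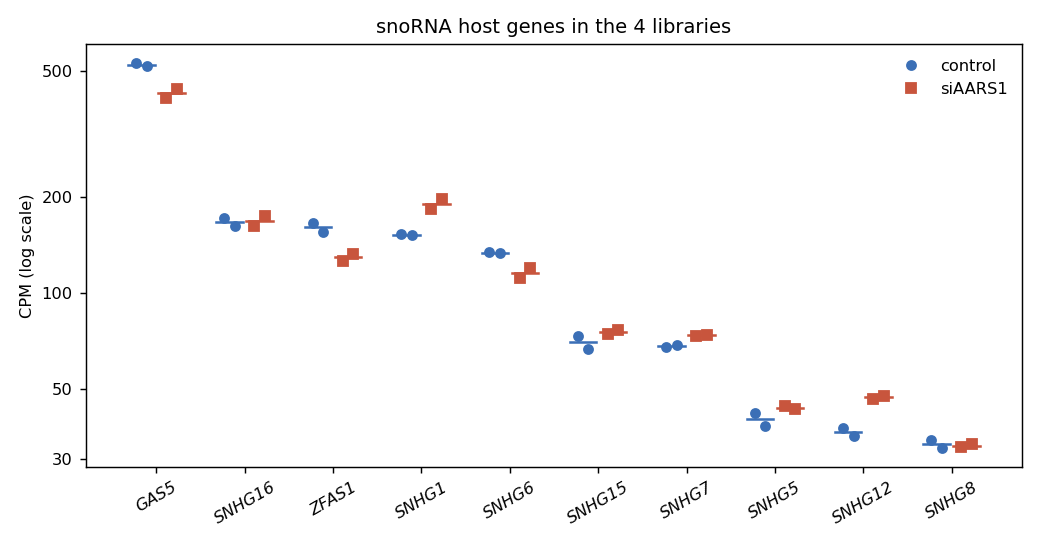
CPM of each host gene (vertical axis, log scale) in the 2 control libraries (blue circles) and the 2 siAARS1 libraries (red squares), with a line at the mean of each group. GAS5, ZFAS1 and SNHG6 sit lower in both siAARS1 libraries, SNHG1 and SNHG12 sit higher in both, and the groups overlap for SNHG8 and SNHG16.

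The targeted gene was lower in both knockdown libraries. AARS1 (listed as AARS), which encodes the cytosolic alanyl-tRNA synthetase, had 428 and 417 CPM in the controls and 292 and 298 CPM in the siAARS1 libraries, 69.7% of the control mean. The knockdown at the RNA level was therefore partial. Knockdown and control were compared to find the RNAs that respond to the loss of AARS1 in lactate-fed cells. Each gene was tested with limma on log2(CPM + 1) across 14199 genes, and a gene was called when its Benjamini-Hochberg adjusted p was below 0.05. In bulk RNA, fewer cells of a kind and less RNA per cell cannot be told apart.

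The host genes did not move together. GAS5, SNHG6 and ZFAS1 fell, SNHG1, SNHG7 and SNHG12 rose, and SNHG5, SNHG8, SNHG15 and SNHG16 did not pass the test. The 6 calls among 10 members stand beside a background in which 70.7% of all genes tested were called, 32.6% higher and 38.0% lower. The groups did not overlap for 8 of the 10 members, against 85.1% of all genes tested. The members' median log2 fold change was 0.06, with members from -0.31 to 0.35, and the median over all genes was -0.05. Calls were thus no more frequent among the hosts than among genes in general.

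In the controls GAS5 stood at 528 and 517 CPM, and in the siAARS1 libraries at 411 and 440 CPM. Both siAARS1 values lay below both control values, at 81.4% of the control mean. On the log2 scale the difference was -0.30 with an SE of 0.0376 (limma adjusted p = 4.44e-07). In reads, GAS5 had 16413 in control replicate 2 and 12707 in siAARS1 replicate 1, so counting error was small beside this difference.

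ZFAS1, the antisense neighbour of ZNFX1 and host of the SNORD12 snoRNAs, had 166 and 156 CPM in the controls and 126 and 133 CPM in the siAARS1 libraries. It was at 80.4% of the control mean with no overlap of the groups, -0.31 on the log2 scale (SE 0.0440, limma adjusted p = 1.97e-06). SNHG6, host of SNORD87, had 135 and 133 CPM in the controls and 112 and 120 CPM in the siAARS1 libraries. In the main test its change was the smallest of the hosts that fell, at 86.2% of the control mean, -0.21 on the log2 scale (SE 0.0438, limma adjusted p = 0.000199).

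SNHG1 had 153 and 152 CPM in the controls and rose to 184 and 198 CPM under siAARS1. The control libraries were within 1 CPM of each other, and the siAARS1 mean was 125% of the control mean. On the log2 scale the rise was 0.32 with an SE of 0.0420 (limma adjusted p = 7.99e-07). SNHG12, which hosts SNORA16A, SNORA44, SNORA61 and SNORD99, had 37.6 and 35.6 CPM in the controls and 46.5 and 47.4 CPM in the siAARS1 libraries. At 128% of the control mean it had the largest fold change among the members that rose, 0.35 on the log2 scale (SE 0.0574, limma adjusted p = 1.40e-05).

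SNHG7, host of SNORA17A and SNORA17B, had 67.8 and 68.5 CPM in the controls against 73.3 and 74.0 CPM under siAARS1. The groups did not overlap, but the rise was only 0.11 on the log2 scale (SE 0.0471, limma adjusted p = 0.0430). That call rested on all 4 libraries, since leaving out any 1 of them gave an adjusted p of 0.0682 to 0.181. Scaling the libraries to equal medians turned the direction, to -0.11, and SNHG7 was then called lower (limma adjusted p = 0.0418). After quantile normalization it was not called (0.028, limma adjusted p = 0.596). On recovered reads it was called higher by edgeR with TMM (0.15, adjusted p = 0.00871) and by DESeq2 (0.16, adjusted p = 0.0221). The direction called for SNHG7 thus depended on the scaling.

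SNHG5, host of SNORD50A and SNORD50B, had 41.9 and 38.2 CPM in the controls against 44.1 and 43.2 CPM under siAARS1. The siAARS1 values were above both controls, with a log2 fold change of 0.12 and a 95% interval from -0.0016 to 0.25 (limma adjusted p = 0.0720). Without control replicate 1 the difference was 0.19 and passed the test (adjusted p = 0.0325). SNHG15, host of SNORA9, had 73.1 and 66.9 CPM in the controls and 74.1 and 76.6 CPM in the siAARS1 libraries, a log2 fold change of 0.11 with an upper bound of 0.21 (limma adjusted p = 0.0686). Without control replicate 1 it too passed, at 0.17 (adjusted p = 0.0222). With edgeR and TMM on recovered reads both were called higher (adjusted p = 0.0241 for SNHG5 and 0.0204 for SNHG15). Both had their lower value in control replicate 2, and for neither do the data settle whether the level changed.

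SNHG8, host of SNORA24, had 34.5 and 32.6 CPM in the controls and 32.7 and 33.4 CPM in the siAARS1 libraries. SNHG16, host of the SNORD1 snoRNAs, had 173 and 163 CPM in the controls against 163 and 175 CPM under siAARS1. The groups overlapped for both. The 95% interval of the log2 fold change was -0.15 to 0.11 for SNHG8 (limma adjusted p = 0.805) and -0.08 to 0.10 for SNHG16 (limma adjusted p = 0.867). A change of the size measured for GAS5 or SNHG1 lies outside both intervals, which hold for the CPM as deposited. By limma, SNHG8 was called lower after median scaling (-0.24, adjusted p = 0.00138) and quantile normalization (-0.21, adjusted p = 0.00684), and SNHG16 after median scaling (-0.21, adjusted p = 0.000203).

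**Figure D3:**
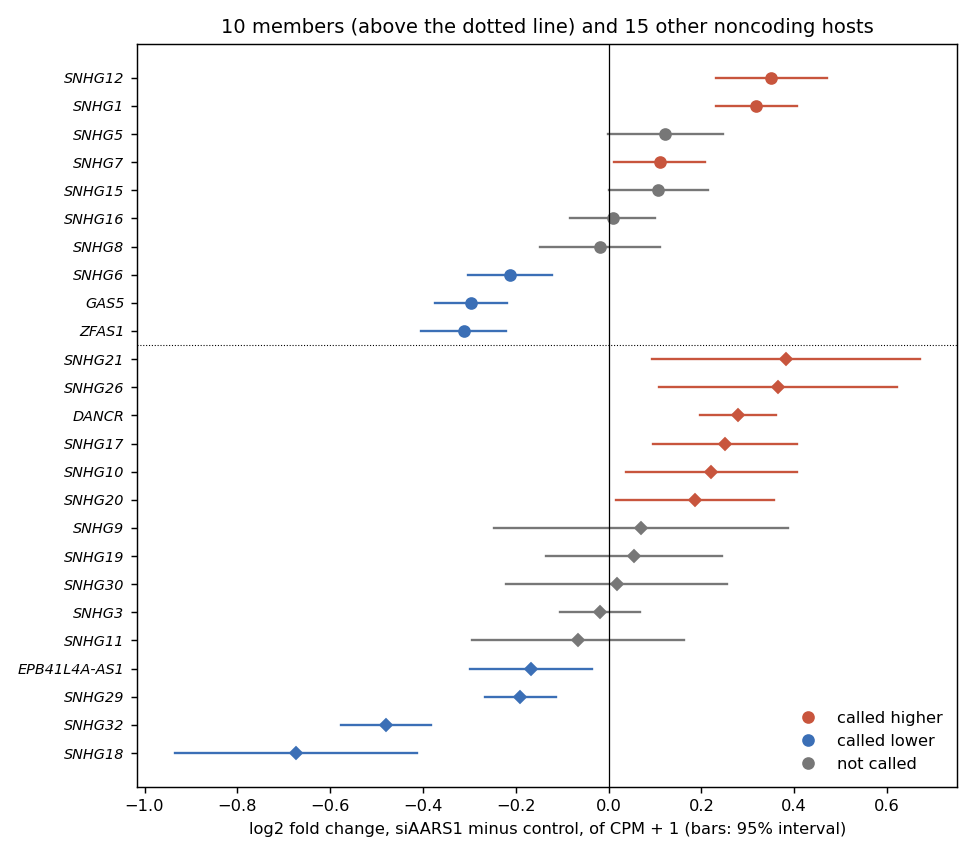
Log2 fold change of CPM + 1, siAARS1 minus control (horizontal axis), with its 95% interval, for the 10 members (circles, above the dotted line) and 15 other noncoding hosts (diamonds, below it). Red marks genes called higher, blue genes called lower and grey genes not called. Members and other hosts both lie on either side of 0.

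The hosts also changed relative to each other within each library, where no scaling factor of a library plays a part. Such a ratio does not show which host of a pair moved, or in which direction. GAS5 was 3.45 and 3.40 times SNHG1 in the controls and 2.24 and 2.22 times SNHG1 in the siAARS1 libraries. ZFAS1 over SNHG1 was 1.09 and 1.02 in the controls and 0.686 and 0.671 in the siAARS1 libraries, so the order of these hosts by CPM turned over. SNHG6 over SNHG1 went from 0.881 and 0.875 to 0.608 and 0.604. With SNHG12 as the reference, the ratio of ZFAS1 was 4.42 and 4.36 in the controls and 2.71 and 2.80 in the siAARS1 libraries. The siAARS1 means of these ratios were 62.7% to 69.0% of the control means, counting also GAS5 and SNHG6 over SNHG12.

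In the CPM as deposited, ratios between hosts that moved the same way changed less. GAS5 over ZFAS1 was 3.17 and 3.33 in the controls and 3.27 and 3.31 in the siAARS1 libraries, and SNHG1 over SNHG12 was 4.07 and 4.27 against 3.94 and 4.17. The groups overlapped for both. GAS5 over SNHG6 went from 3.91 and 3.88 to 3.69 and 3.67, a small change with no overlap. The pairs were picked by the directions given above, so these ratios carry no test. A ratio within a library also keeps any effect of GC content and length. After the correction for these, described below, the log2 fold change was 0.25 for SNHG1 and 0.55 for SNHG12. It was -0.26 for GAS5, -0.17 for ZFAS1 and -0.45 for SNHG6, so the likeness within these pairs holds for uncorrected CPM.

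**Figure D4:**
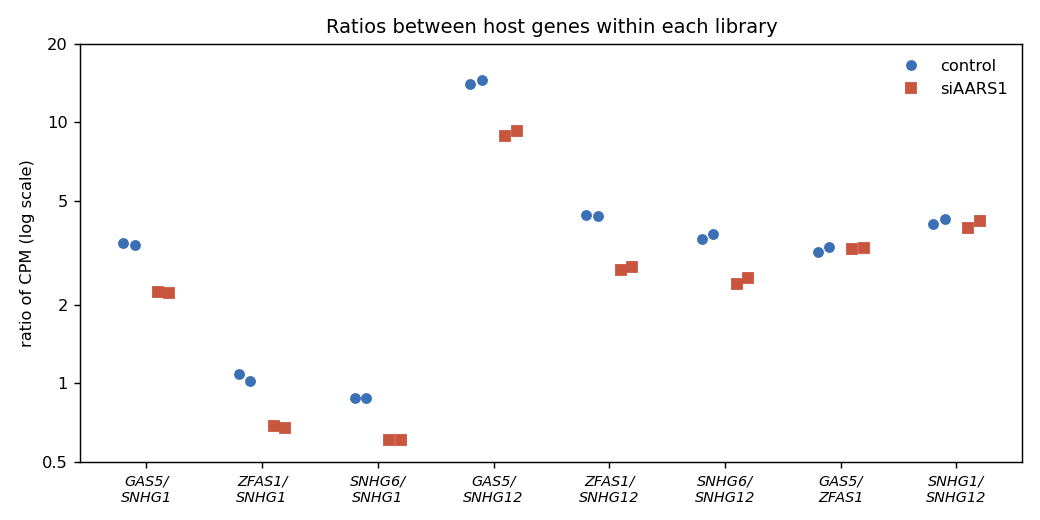
Ratio of the CPM of pairs of host genes within each library (vertical axis, log scale), with controls as blue circles and siAARS1 libraries as red squares. The 6 ratios of GAS5, ZFAS1 or SNHG6 over SNHG1 or SNHG12 are lower in both siAARS1 libraries, while GAS5 over ZFAS1 and SNHG1 over SNHG12 overlap between the groups.

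GAS5, SNHG6 and ZFAS1 were called lower, and SNHG1 and SNHG12 higher, in the main test and under each of the 16 other settings. The size varied. GAS5 ranged from -0.52 to -0.24, ZFAS1 from -0.53 to -0.17, SNHG6 from -0.45 to -0.16, SNHG1 from 0.10 to 0.37 and SNHG12 from 0.13 to 0.55. The other 5 members changed direction or side of the threshold under at least 1 setting. Scaling each library to the same median lowered every log2 fold change by 0.22, which took the median over all genes to -0.27, split all calls into 3306 higher and 8173 lower in place of 4633 and 5399, and left 2 members higher (SNHG1 and SNHG12) and 6 lower. Relative to the median of all genes, the members' median was 0.11 higher with and without that scaling.

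A smooth correction of each library for transcript GC content and length moved some hosts much more than others. SNHG15 (mean transcript GC content 54.2%) went from 0.11 to 0.38 on the log2 scale (limma adjusted p = 9.28e-08), SNHG7 (58.5%) from 0.11 to 0.43 and SNHG12 (51.8%) from 0.35 to 0.55. SNHG6 (40.3%, the lowest GC content among the members) went from -0.21 to -0.45. GAS5 went from -0.30 to -0.26 and ZFAS1 from -0.31 to -0.17. After the correction 4 members were called higher (SNHG1, SNHG7, SNHG12 and SNHG15) and 3 lower. The correction also takes out any true change that follows GC content or length, and which of the values is nearer to the RNA in the cells was not tested.

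**Figure D5:**
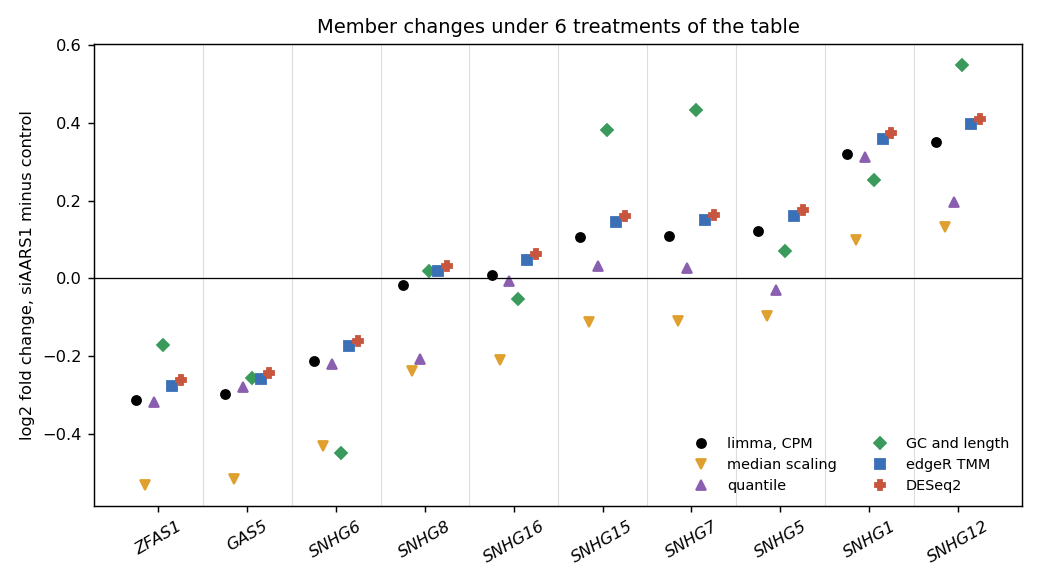
Log2 fold change of each host gene, siAARS1 minus control (vertical axis), by limma on log2(CPM + 1), after median scaling, quantile normalization or the GC content and length correction, and by edgeR and DESeq2 on recovered reads, which add no pseudocount of 1 CPM. ZFAS1, GAS5 and SNHG6 stay below 0 and SNHG1 and SNHG12 above 0 in all 6, while the other 5 hosts have points on both sides of 0.

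The structural features were spread over hosts that rose, fell or did not pass the test. A TOP-like start in at least 1 GENCODE transcript was present in all 3 hosts called lower, in 2 of 3 called higher and in 3 of 4 not called. ZFAS1, SNHG12 and SNHG5, whose RefSeq promoters are printed above with both TATAA and the pyrimidine tract, fell, rose and did not pass the test, respectively. The hosts called lower and those called higher each held 15 snoRNA genes. The 3 hosts with box H/ACA snoRNAs only were SNHG7, called higher, and SNHG8 and SNHG15, not called. With so few genes these counts are a description.

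Some hosts overlap or face another gene on the opposite strand, and the use of strand in counting is not given in the sources used here, so reads from shared bases cannot be told apart. ZBTB37 overlaps GAS5 by 801 bases. It had 5.10 and 6.81 CPM in the controls and 19.4 and 20.3 CPM in the siAARS1 libraries, a rise of 1.59 on the log2 scale (SE 0.110, limma adjusted p = 2.52e-11), opposite to GAS5 and far below it in level. ZNFX1 overlaps ZFAS1 by 249 bases and had 51.1 and 50.7 CPM in the controls and 52.9 and 50.8 CPM in the siAARS1 libraries, which overlapped. SLC3A2, the heavy chain of amino acid transporters, starts 188 bases from SNHG1 in the other direction. It had 278 and 265 CPM in the controls and 249 and 245 CPM in the siAARS1 libraries, -0.14 on the log2 scale (SE 0.0379, limma adjusted p = 0.00316), which turned to 0.18 after the GC content and length correction.

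FAM69B overlaps SNHG7 over 2685 bases. It went from 61.0 and 65.9 CPM to 44.2 and 44.6 CPM, -0.50 on the log2 scale (limma adjusted p = 3.84e-08), while SNHG7 rose slightly. After the GC content and length correction FAM69B was at -0.13 and SNHG7 at 0.43. TRNAU1AP shares 8 bases with SNHG12 and went from 16.5 and 15.7 CPM to 12.8 and 13.6 CPM (log2 fold change -0.27, limma adjusted p = 0.00792). In the main test no neighbour on this list was called in the direction of its host.

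Of 19 other noncoding snoRNA hosts on a list, 15 were in the table, and 6 were called higher and 4 lower, with a median log2 fold change of 0.05. Like the members, they went both ways. Of all genes tested, 70.7% were called, 32.6% higher and 38.0% lower, and these shares stand beside each list below. SNHG18 had 7.16 and 7.09 CPM in the controls and 3.63 and 4.60 CPM in the siAARS1 libraries (log2 fold change -0.67, SE 0.125, limma adjusted p = 6.51e-05). SNHG32 (listed as C6orf48) had 279 and 246 CPM in the controls and 187 and 188 CPM in the siAARS1 libraries (-0.48, SE 0.0463, limma adjusted p = 6.96e-09). SNHG21 (listed as RP11-752G15.6) was low, with 3.55 and 3.69 CPM in the controls and 4.27 and 5.87 CPM in the siAARS1 libraries (0.38, SE 0.139, limma adjusted p = 0.0188). After median scaling limma called 0 of the 15 higher, also at an unadjusted p under 0.05, and 6 lower, while edgeR with TMM called 6 higher and DESeq2 called 3 on their own scaling, so the rises on this list depended on the scaling.

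Of 28 protein-coding snoRNA hosts other than ribosomal protein genes, 20 were called higher and 4 lower, with a median log2 fold change of 0.23. In total 24 were called, beside 70.7% of all genes tested (32.6% higher). IPO7, a nuclear import receptor, went from 110 and 111 CPM to 503 and 548 CPM. EIF3A, a subunit of the initiation factor eIF3, went from 82.0 and 81.1 CPM to 334 and 343 CPM, and WDR43, a factor of small ribosomal subunit assembly, from 54.9 and 61.0 CPM to 139 and 136 CPM. These 3 had the largest changes on the list, and correcting for GC content and length shrank the rise of WDR43 from 1.24 to 0.21 on the log2 scale. After median scaling the list had 13 called higher and 10 lower.

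The proteins that bind, modify and assemble snoRNAs were mostly higher as well, with 10 of 18 called higher, 3 lower and a median of 0.23. Their 13 calls stand beside 70.7% of all genes tested (32.6% higher). RPAP3, of the R2TP assembly complex, went from 8.33 and 8.45 CPM to 43.3 and 47.3 CPM. NOP58, a core box C/D protein, went from 38.2 and 43.2 CPM to 146 and 143 CPM. ZNHIT6, a box C/D assembly factor, went from 19.4 and 16.6 CPM to 43.6 and 48.5 CPM, and its log2 fold change of 1.31 shrank to 0.07 after the GC content and length correction (limma adjusted p = 0.412). NOP56 and DKC1 stand on this list and on that of the protein-coding hosts. After median scaling the split was 6 higher and 8 lower.

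Because the spliced RNA of these hosts is a known substrate of NMD, its factors and other targets were read beside them. The CPM of a gene pool all its transcript forms, and in GENCODE 19 of 29 GAS5 transcripts retain an intron. The activity of NMD was therefore not tested. Of 24 NMD factors, 15 were called higher and 3 lower, with a median log2 fold change of 0.27. Together 18 of the 24 were called, beside 70.7% of all genes tested (32.6% higher). SMG1, the kinase that phosphorylates UPF1, went from 31.3 and 31.6 CPM to 208 and 216 CPM. UPF2, its partner in the surveillance complex, went from 9.44 and 9.61 CPM to 63.6 and 66.3 CPM, and XRN1, the exonuclease that degrades decapped RNA, from 2.52 and 2.30 CPM to 13.1 and 15.7 CPM. UPF1 itself, the central helicase, was called slightly lower in the main test, at -0.12 (limma adjusted p = 0.00834). The GC content and length correction turned UPF1 to 0.22 (limma adjusted p = 9.21e-07). With edgeR and TMM UPF1 was not called (-0.083, adjusted p = 0.0701), so its direction depended on the processing. Without control replicate 2, limma called 15 factors higher and 0 lower (1 lower at an unadjusted p under 0.05), while edgeR with TMM called 2 lower and DESeq2 called 1 lower on all libraries. After median scaling the split was 10 higher and 6 lower with a median of 0.05. The GC content and length correction took UPF2 from 2.65 to 1.49 and XRN1 from 2.17 to 0.80 on the log2 scale.

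Of 14 other genes known as NMD targets, 10 were called lower and 1 higher, with a median log2 fold change of -0.25. In total 11 of the 14 were called, beside 70.7% of all genes tested (38.0% lower). GADD45B, a stress-induced regulator of growth arrest, went from 24.8 and 22.0 CPM to 11.9 and 11.3 CPM. GADD45A, its paralog, went from 38.9 and 39.0 CPM to 20.9 and 23.1 CPM, and ATF3, a stress transcription factor, from 21.4 and 21.2 CPM to 12.5 and 11.6 CPM. All 3 respond to stress signals as well as to decay. Of the members, GAS5, SNHG6 and ZFAS1 were called in the same direction as most of this list and SNHG1, SNHG7 and SNHG12 in the other. After the GC content and length correction 7 targets were called lower and 2 higher, and the median was -0.09.

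TOP mRNAs were read because many hosts start with the pyrimidine run described above. Of 79 cytosolic ribosomal protein genes, 65 were called lower and 4 higher, with a median log2 fold change of -0.25. Over all genes tested 38.0% were called lower and 32.6% higher. RPL3 went from 3019 and 2998 CPM to 2321 and 2229 CPM, while RPL7 rose from 1388 and 1414 CPM to 1846 and 1926 CPM. Ribosomal protein genes have many near-identical pseudogenes, and how the counting treated reads they share is not known here, so single values are uncertain. The median after the GC content and length correction was -0.06, with 41 called lower and 8 higher. Of 23 TOP mRNA regulators and other TOP mRNAs, 12 were called higher and 6 lower, beside the same shares of all genes tested. EEF1B2, EEF2, RACK1 and TPT1 stand on this list and on that of the protein-coding hosts, and of them EEF2, RACK1 and TPT1 were called lower. LARP4 went from 24.6 and 23.7 CPM to 94.5 and 104 CPM, EIF3E from 106 and 121 CPM to 278 and 301 CPM and NAP1L1 from 274 and 290 CPM to 564 and 605 CPM. The GC content and length correction took LARP4 from 1.99 to 0.99, EIF3E from 1.34 to 0.71 and NAP1L1 from 1.05 to 0.28 on the log2 scale, with 9 of the list called higher and 8 lower. After median scaling the split was 8 higher and 12 lower.

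The genes whose pattern over the 4 libraries was most like that of GAS5, by Euclidean distance between centred log2(CPM + 1) values, were FAM86C1 (distance 0.0120), RP11-12A20.7 (0.0154), WASH3P (0.0182), ZNF446 (0.0185) and CMC2 (0.0191). Their log2 fold changes ran from -0.31 to -0.28. CMC2, for example, had 37.7 and 36.9 CPM in the controls and 29.2 and 30.7 CPM in the siAARS1 libraries. Over 4 libraries such likeness mostly restates the size of the change, and none of the 5 is a snoRNA host on the lists used here.

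The depth and the identity of the cells were read from the table. Reads assigned to the listed genes numbered 30653210 to 33522573 per library. Of 5 epithelial markers only KRT8 and CDH1 were listed, and EPCAM, KRT18 and KRT19 were not. KRT8 and CDH1 had a summed level of 27.0 to 27.3 CPM in the controls and 6.14 to 7.29 CPM in the siAARS1 libraries. Of 4 mesenchymal markers VIM, ZEB1 and FN1 were listed and CDH2 was not. The listed ones summed to 5150 to 5209 CPM in the controls and 4704 to 4814 CPM in the siAARS1 libraries. A sum can hide the direction of its less abundant genes. The gastric lineage markers CLDN18, TFF1, TFF2, MUC5AC, MUC6 and GKN1, the leukocyte marker PTPRC and the endothelial marker PECAM1 were not among the listed genes. COL1A1, ACTA2 and DCN, which mark fibroblasts in tissue, summed to 2654 to 2744 CPM in the controls and 1875 to 1967 CPM in the siAARS1 libraries. The part of these shifts in the changes of the host genes was not tested.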

How the data were processed

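RNA-seq of 2 control and 2 siAARS1 libraries was read from 1 table. The authors deposited CPM values for 14431 genes. Each of these exceeded 1 CPM in at least 1 library, so the shares over all genes cover such genes only. A gene that was not listed may have been below that level. Per the submitters' processing notes RSEM 1.3.3 and the hg38 build were used, while the aligner, the annotation and the use of strand are not given in the sources used here. CPM corrects for depth, not for length or GC content. All values (100%) were whole multiples of 1 read within 0.1 read, which gave 30653210 to 33522573 reads per library. A count of 3 reads, the limit that 0 reads allow, equals 0.0880 to 0.0971 CPM and covers counting error only. The chi-square statistic per gene between replicates was 3.62 (control) and 3.60 (siAARS1), above sampling noise, so each library counted as its own sample.

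Genes were tested with limma 3.58.1 (R 4.3.3, eBayes with trend) on log2(CPM + 1) with the group as the only term, over the 14199 genes whose mean reached 1 CPM in either group, with Benjamini-Hochberg adjustment over all of them. Fold changes on this scale understate those of low genes. SD is over n = 2. Alternatives were a pseudocount of 0.1, no filter, median scaling, quantile normalization, the replicate number as a block, a threshold of 0.01, leaving out each library, a smooth GC content and length correction (mgcv 1.9.3, 13819 genes), and edgeR 4.0.16 and DESeq2 1.42.0 on recovered reads, the former also with library size only and with a minimum of 10 reads per library. The fits were also run on simulated data as a check of the code. Far fewer genes changed there than were called here, so that run does not show which scaling suits these libraries. GENCODE 29 matched 97.2% of the identifiers. Its build is that of the notes, but its release may not be the authors'.

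The members and the gene lists were chosen with earlier results of these data known. Named genes are AARS1, all 10 members, the 3 called genes with the largest change on each other list, listed genes that overlap a member or start within 1000 bases of it on the other strand, and the 5 genes nearest to GAS5. UPF1 was named after its values were seen. A gene that the rule names is not reported here. The table's other columns were annotation only and were not used.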

Additional observations from a re-analysis of the deposited data

How the results depend on the processing

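The AARS1 fall and the calls of GAS5, SNHG1, SNHG6, SNHG12 and ZFAS1 held under all 16 alternatives. The members' median log2 fold change was -0.16 after median scaling, -0.019 after quantile normalization and 0.11 with DESeq2. The other noncoding hosts had 6 calls after median scaling, 6 after quantile normalization, 6 with DESeq2 and 5 at a threshold of 0.01, against 10.

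For single members, median scaling reversed SNHG5 (-0.10), SNHG7 (-0.11), SNHG15 (-0.11) and SNHG16 (-0.21), and quantile normalization reversed SNHG5 (-0.030) and SNHG16 (-0.0074). SNHG8 was called lower after median scaling (-0.24) and quantile normalization (-0.21). It turned to 0.019 when corrected for GC content and length, and to 0.019 with that correction and the replicate block together. It turned to 0.018 with edgeR and TMM, to 0.019 with at least 10 reads per library and to 0.033 with DESeq2. SNHG16 turned to -0.053 with that correction, alone or together with the replicate block, and to -0.0057 with edgeR on library size only. The cause was not tested.

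Leaving out 1 library gave a members' median of 0.0048 to 0.085 and 6 to 8 calls among the other noncoding hosts, 6 of them without control replicate 1 or without siAARS1 replicate 2. SNHG8 ranged from -0.058 to 0.021 and SNHG16 from -0.043 to 0.061.

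The labels do not say that replicate numbers mark pairs, and with 2 pairs this cannot be settled from the data (correlation of same-numbered deviations 0.118 across genes). With the replicate block SNHG5 (0.12, adjusted p = 0.0428) and SNHG15 (0.11, adjusted p = 0.0375) passed the test, for 8 member calls in place of 6. Leaving out a library leaves 1 sample in a group, which is then assumed to vary like the other group.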
